A study of Homo sapiens with 32 samples.

Results

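The input libraries of the Subunit-Seq experiment report how the RNA of HEK293T cells differed after 16 h of thapsigargin, before any RNA was selected through eIF3d. They are 4 of the 32 samples of the series: 2 inputs from cells given 600 nM thapsigargin (Tg) for 16 h, and 2 inputs from cells given an equal volume of the solvent DMSO. HEK293T is a human embryonic kidney line, and all 4 inputs carry the HA-eIF3d-TEV genotype, that is, eIF3d with an HA tag and a TEV protease site. They therefore share the tagged protein, and nothing in the labels says how many clones or separate cultures they came from. The p-values of Tg against DMSO thus measure only spread between libraries. That spread was pooled over genes and over all 8 Subunit-Seq libraries, those selected through eIF3d included. Genes were kept if their mean over the 4 inputs was at least 1 RPKM (reads scaled by gene length and by library size), which left 9813 of the 58721 genes in the tables. Both treatments enter that mean, so a gene low in 1 treatment could pass through its level in the other. Replicates 1 and 2 were deposited in separate tables, so each Tg input was set against the DMSO input of its own number, here called pair 1 and pair 2. RNA-Seq libraries of HEK293T cells labelled WT eIF3d, here called WT cells, with the same treatments, are set beside the inputs further below.

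Thapsigargin blocks SERCA, the pump that fills the endoplasmic reticulum (ER) with calcium, and proteins then fold poorly in that compartment. ER membrane sensors answer with the unfolded protein response (UPR), in which the factors XBP1 and ATF6 switch on chaperones, folding enzymes and degradation machinery. PERK, the third sensor, phosphorylates eIF2alpha and so starts the integrated stress response (ISR), in which ATF4 and CHOP, the product of DDIT3, switch on genes of amino acid supply and tRNA charging.

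Genes of these pathways stood above the rest in both pairs. The gene lists used here were chosen with earlier results of these data known, so the counts are descriptions and not a test. Of the 185 distinct genes tested in 13 lists of the ISR, the UPR and the secretory pathway, 150 (81.1%) lay above the all-gene median of the pair in both pairs and 4 lay below it in both. Pair 1 alone, which leaves out both libraries of replicate 2, placed 164 of them (88.6%) above its median, and pair 2 alone placed 167 (90.3%). Among all genes tested, 25.5% lay above the median in both pairs and 25.5% lay below it in both. A log2 difference above 1 in both pairs, on log2(RPKM + 1), was found for 34 of the 185 (18.4%) and for 84 genes in all, which is 0.856% of those tested. These counts include genes that passed the filter only through their Tg levels, among them SLC1A4, SLC6A9 and DERL3. Counts without such genes are not given. No gene of the 13 lists lay below −1 in both pairs, as 57 genes (0.581%) of all those tested did. Counted from the median of each pair instead, 49 of the 185 lay above it by 1 or more in both pairs, against 102 genes in all (1.04%), and 53 (0.54%) lay below it by as much.

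Distances from the median are given because the pairs differed as a whole. The all-gene median of Tg minus DMSO was −0.35 (log2) in pair 1 and 0.66 in pair 2, and 21.5% of genes were above 0 in pair 1 against 81.7% in pair 2. Across genes the differences of the pairs correlated with Pearson r = 0.107 and Spearman rho = 0.0756, over 9813 genes that share libraries and are not independent. Depth was 5102852 and 12027931 reads in the Tg inputs, against 8130736 and 14606555 reads in the DMSO inputs. The number of genes at 1 RPKM or more was 10487 and 8503 in the Tg inputs, against 11452 and 6395 in the DMSO inputs, so that DMSO input 2 had the deepest sequencing and the fewest genes. Mitochondrial rRNA took 19.9% and 9.41% of reads in the Tg inputs, against 4.64% and 20.4% in the DMSO inputs. With all mitochondrially encoded genes left out and the libraries rescaled, 0 genes were called, and TRIB3 had adjusted p = 0.326 (limma). The part of mitochondrial rRNA alone was not tested. Of 10 markers of HEK293 cells, 7 passed the filter, among them NEFM, NEFL and INA, the neurofilament genes this line is known for. SOX11 and PAX2 were near or at 0, and EYA1 reached at most 0.479 RPKM. The 10 summed to 35.1 and 16.4 RPKM in the Tg inputs, against 59.9 and 8.25 RPKM in the DMSO inputs. Of 15 markers of other lineages, 9 were above 0 in at least 1 input, and PTPRC, CD3E, HBB, AFP, LUM and PECAM1 were at 0 in all 4. The 15 summed to 3.09 and 1.17 RPKM in the Tg inputs, against 4.99 and 0.0837 RPKM in the DMSO inputs. HBA1, a globin, passed the filter at 2.35 and 0.498 RPKM in the Tg inputs, against 1.33 and 0 RPKM in the DMSO inputs, and COL1A1, a collagen, reached 2.89 RPKM in DMSO input 1.

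**Figure D1:**
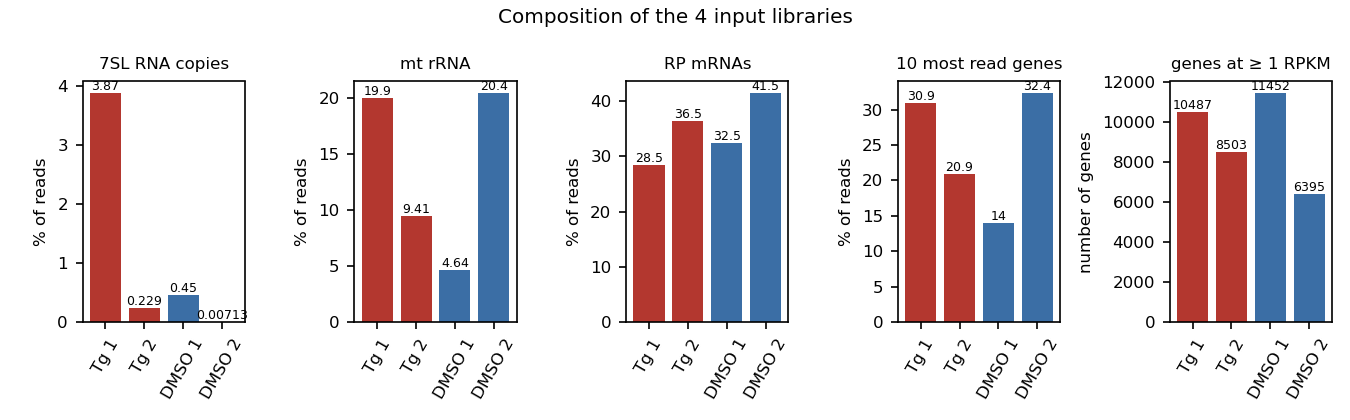
Share of reads in 7SL RNA copies, mitochondrial (mt) rRNA, ribosomal protein (RP) mRNAs and the 10 most read genes, and number of genes at 1 RPKM or more, in each of the 4 input libraries (bars, Tg red, DMSO blue; 1 library a bar, so no error bars). DMSO input 2 had 6395 genes at 1 RPKM or more and 20.4% of reads in mt rRNA, and Tg input 1 had 3.87% of reads in 7SL copies.

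Sequences upstream of the genes that were high in both pairs are shown next because the UPR acts through short elements there. The windows run from 250 bases before to 50 bases after a RefSeq start of each gene (GRCh38.p14), 5′ to 3′ on the strand of the gene. No other start of a gene was searched. The capitals mark the ER stress element (ERSE, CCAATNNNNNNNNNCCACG) or, in HERPUD1, ERSE-II (ATTGGNCCACG), searched on both strands. The windows are those of HSPA5 (chr9:125241294-125241593, minus strand), HSP90B1 (chr12:103930160-103930459, plus strand), CALR (chr19:12938359-12938658, plus strand), PDIA6 (chr2:10812736-10813035, minus strand) and HERPUD1 (chr16:56931892-56932191, plus strand).
HSPA5: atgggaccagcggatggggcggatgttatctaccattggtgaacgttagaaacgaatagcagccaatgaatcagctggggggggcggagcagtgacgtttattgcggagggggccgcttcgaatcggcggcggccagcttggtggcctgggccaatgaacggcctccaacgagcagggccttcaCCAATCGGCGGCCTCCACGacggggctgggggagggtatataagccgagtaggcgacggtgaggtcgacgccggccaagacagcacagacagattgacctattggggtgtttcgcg
HSP90B1: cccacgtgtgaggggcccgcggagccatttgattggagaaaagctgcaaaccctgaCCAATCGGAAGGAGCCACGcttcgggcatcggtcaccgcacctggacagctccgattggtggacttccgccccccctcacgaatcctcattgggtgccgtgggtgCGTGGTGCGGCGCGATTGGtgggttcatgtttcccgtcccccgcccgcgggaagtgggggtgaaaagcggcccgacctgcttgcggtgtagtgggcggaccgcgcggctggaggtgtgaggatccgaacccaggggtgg
CALR: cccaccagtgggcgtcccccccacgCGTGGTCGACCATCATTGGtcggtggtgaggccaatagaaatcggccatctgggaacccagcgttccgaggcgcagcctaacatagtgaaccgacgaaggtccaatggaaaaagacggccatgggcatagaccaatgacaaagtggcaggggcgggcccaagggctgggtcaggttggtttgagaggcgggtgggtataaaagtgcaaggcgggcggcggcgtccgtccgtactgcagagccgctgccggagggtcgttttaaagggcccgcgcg
PDIA6: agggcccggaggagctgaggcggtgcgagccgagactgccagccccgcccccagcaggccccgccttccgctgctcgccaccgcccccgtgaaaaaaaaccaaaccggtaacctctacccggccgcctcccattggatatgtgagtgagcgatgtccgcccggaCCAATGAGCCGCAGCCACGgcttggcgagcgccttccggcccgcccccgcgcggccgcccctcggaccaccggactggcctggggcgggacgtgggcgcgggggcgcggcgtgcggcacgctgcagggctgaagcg
HERPUD1: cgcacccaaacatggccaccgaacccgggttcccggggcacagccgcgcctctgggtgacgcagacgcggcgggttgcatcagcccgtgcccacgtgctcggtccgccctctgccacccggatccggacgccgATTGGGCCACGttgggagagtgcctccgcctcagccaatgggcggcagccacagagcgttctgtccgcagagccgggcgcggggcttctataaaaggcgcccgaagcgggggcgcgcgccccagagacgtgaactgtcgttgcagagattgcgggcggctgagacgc

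ERSE stood in 22 of 27305 RefSeq promoter windows (0.081%) and in 10 of the 7017 windows that matched a tested gene (0.143%). Of the 84 genes above 1 in both pairs, 48 had a window, and 4 of these (8.33%) held ERSE. They were HSPA5, HSP90B1, CALR and PDIA6, printed above, and HSP90B1 holds the element on both strands at separate places. ERSE-II stood in 17 of all windows (0.062%), in 11 of the tested ones (0.157%) and in 3 of the 48 (6.25%), those of HERPUD1, HYOU1 and SDF2L1. The UPR element UPRE (TGACGTGG) was in 70 tested windows (0.998%) and in 3 of the 48 (6.25%), those of HYOU1, SSR3 and DNAJC10; in HYOU1 it overlaps ERSE-II. The C/EBP-ATF element CARE (TGATGNAAT), through which ATF4 acts, was in 27 tested windows (0.385%) and in 1 of the 48 (2.08%), that of the histone gene H2AC21; FGF21, not among the 84, holds it too. The windows of DDIT3, TRIB3, ATF3, CHAC1 and XBP1 held none of the 4 letter strings. Other starts of these genes and bases outside the windows were not searched. Of the 57 genes below −1 in both pairs, 27 had a window and 0 held any of them. These matches are descriptions of letters in a window, and the genes with a match had been seen to be high.

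Read from the other side, the 10 tested genes with ERSE include HSPA5, HSP90B1, CALR and PDIA6, already seen to be high. The 10 had median differences of 0.86 (log2) in pair 1 and 1.93 in pair 2, against −0.35 and 0.66 over all genes tested. Of the 10, 7 lay above the median of both pairs, as did 25.5% of all genes tested. CRELD2 and SERP1, neither among the 84, lay above the pair medians by 1.13 and 1.35 for CRELD2 and by 1.30 and 1.20 for SERP1. CRELD2 encodes a folding factor of the ER and SERP1 a protein of its membrane. TMEM120A, with the same element, lay above the median in pair 1 by 0.42 and at −0.20 in pair 2. Relative to the medians, ALG12 lay at −0.02 in pair 1 and 1.07 in pair 2, and ERO1B at 1.09 in pair 1 and −0.01 in pair 2. Among the 11 genes with ERSE-II, 7 lay above both medians, and HERPUD1, HYOU1 and SDF2L1, already seen to be high, were among the 7. Over the 11, the median differences were −0.18 in pair 1 and 1.21 in pair 2.

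**Figure D2:**
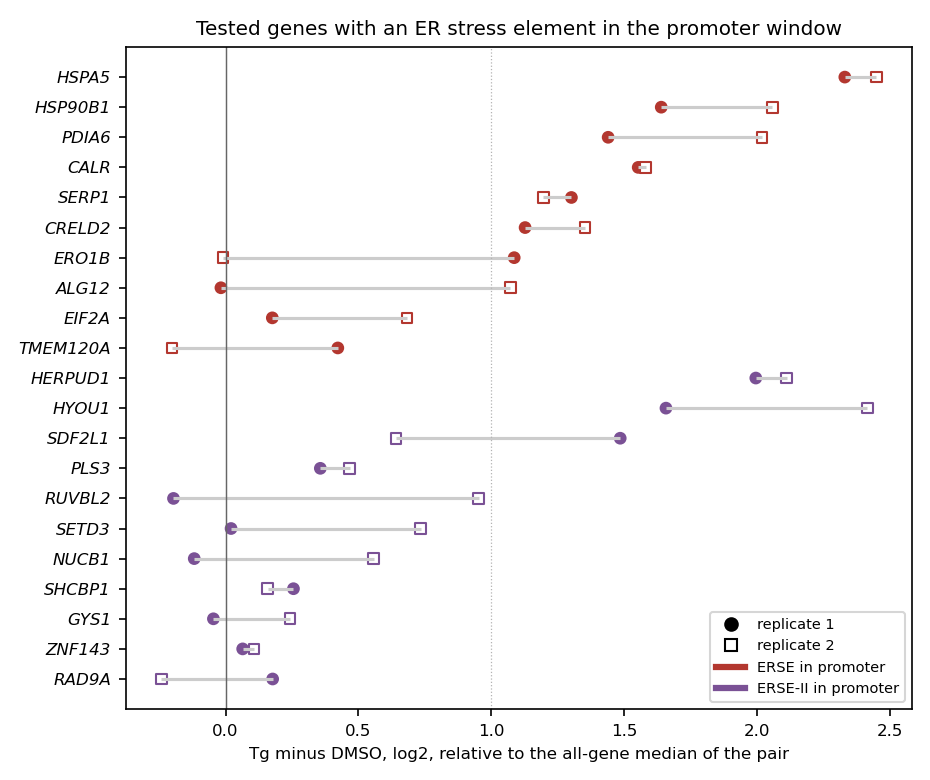
Tg minus DMSO of log2(RPKM + 1) in pair 1 (filled circles) and pair 2 (open squares), relative to the all-gene median of the pair, for the 21 tested genes with ERSE (red) or ERSE-II (purple) in the promoter window; the dotted line marks 1. HSPA5, HSP90B1, PDIA6, CALR, SERP1, CRELD2, HERPUD1 and HYOU1 lie beyond the dotted line in both pairs.

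TRIB3 was the only protein-coding gene whose difference passed the test over all 9813 genes. It encodes a pseudokinase that ATF4 and CHOP induce and that dampens their activity. Its level was 65.3 and 127 RPKM in the Tg inputs, against 16.0 and 6.56 RPKM in the DMSO inputs, so both Tg inputs were above both DMSO inputs. The share of all genes tested whose groups were apart in that way is not given, here or for the genes below. Its log2 difference was 1.96 and 4.08 in pairs 1 and 2 and 3.02 ± 0.66 (SE), adjusted p = 0.00985 by limma with Benjamini-Hochberg adjustment over 9813 genes. In all, 5 genes (0.051%) were called higher and 0 (0%) were called lower, while 323 genes had an unadjusted p under 0.05 by the same tool. The smallest adjusted p among genes with a lower level was 0.319. Without the replicate block 0 genes were called (limma), 163 had an unadjusted p under 0.05, and TRIB3 had adjusted p = 1. Leaving out 1 of the 4 inputs in turn gave adjusted p between 0.114 and 0.918 for TRIB3 (limma). Fewer cells in a state and less RNA per cell cannot be told apart in such bulk samples.

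Among the ISR transcription factors, 3 of 7 lay above 1 in both pairs and 6 of 7 lay above both pair medians. DDIT3, which encodes CHOP, had 32.5 and 50.1 RPKM in the Tg inputs, against 5.08 and 7.96 RPKM in the DMSO inputs. Its differences of 2.46 and 2.51 were alike in both pairs, and the groups did not overlap, but its adjusted p was 0.176 (limma). ATF3, an early stress factor of the ATF family, had 30.1 and 54.5 RPKM in the Tg inputs, against 13.5 and 4.25 RPKM in the DMSO inputs. NUPR1, a small chromatin protein induced by stress, had 6.77 and 8.09 RPKM in the Tg inputs, against 1.04 and 1.11 RPKM in the DMSO inputs. These genes were higher in both Tg inputs than in either DMSO input.

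ATF4 mRNA behaved differently in the pairs, at 405 and 608 RPKM in the Tg inputs, against 429.5 and 133 RPKM in the DMSO inputs. ATF4 is regulated largely by translation of its mRNA under phosphorylated eIF2alpha. Its difference was −0.09 and 2.18 in pairs 1 and 2, and the Tg inputs overlapped the DMSO inputs. CEBPB and CEBPG, bZIP factors that pair with ATF4 or CHOP, had differences of 0.61 and 3.05 for CEBPB and 0.78 and 1.64 for CEBPG. ATF5, the remaining factor, had −0.13 and 0.63 and lay within 0.02 of the median in pair 2. PPP1R15A, whose product GADD34 brings the phosphatase to eIF2alpha, had 10.6 and 42.5 RPKM in the Tg inputs, against 9.15 and 2.15 RPKM in the DMSO inputs. Its levels were close in pair 1 (0.19) and apart in pair 2 (3.79).

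All 11 tested ISR effectors lay above the median of both pairs, 3 lay above 1 in both, and TRIB3 was the 1 called. SESN2, which encodes sestrin 2, a sensor that restrains mTORC1, had 43.5 and 50.1 RPKM in the Tg inputs, against 18.7 and 3.13 RPKM in the DMSO inputs. CHAC1, a glutathione-degrading enzyme induced through ATF4, had 12.6 and 16.3 RPKM in the Tg inputs, against 4.54 and 1.40 RPKM in the DMSO inputs. SESN2 reached 1.18 and 3.63 and CHAC1 1.29 and 2.85 in pairs 1 and 2, with both Tg inputs of each gene above both DMSO inputs. FGF21 and STC2, secreted stress factors, passed 1 above the median in both pairs, by 1.29 and 1.33 for FGF21 and by 1.06 and 1.70 for STC2. DDIT4, an inhibitor of mTORC1, had 26.3 and 20.4 RPKM in the Tg inputs, against 32.5 and 7.62 RPKM in the DMSO inputs, and its groups overlapped.

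**Figure D3:**
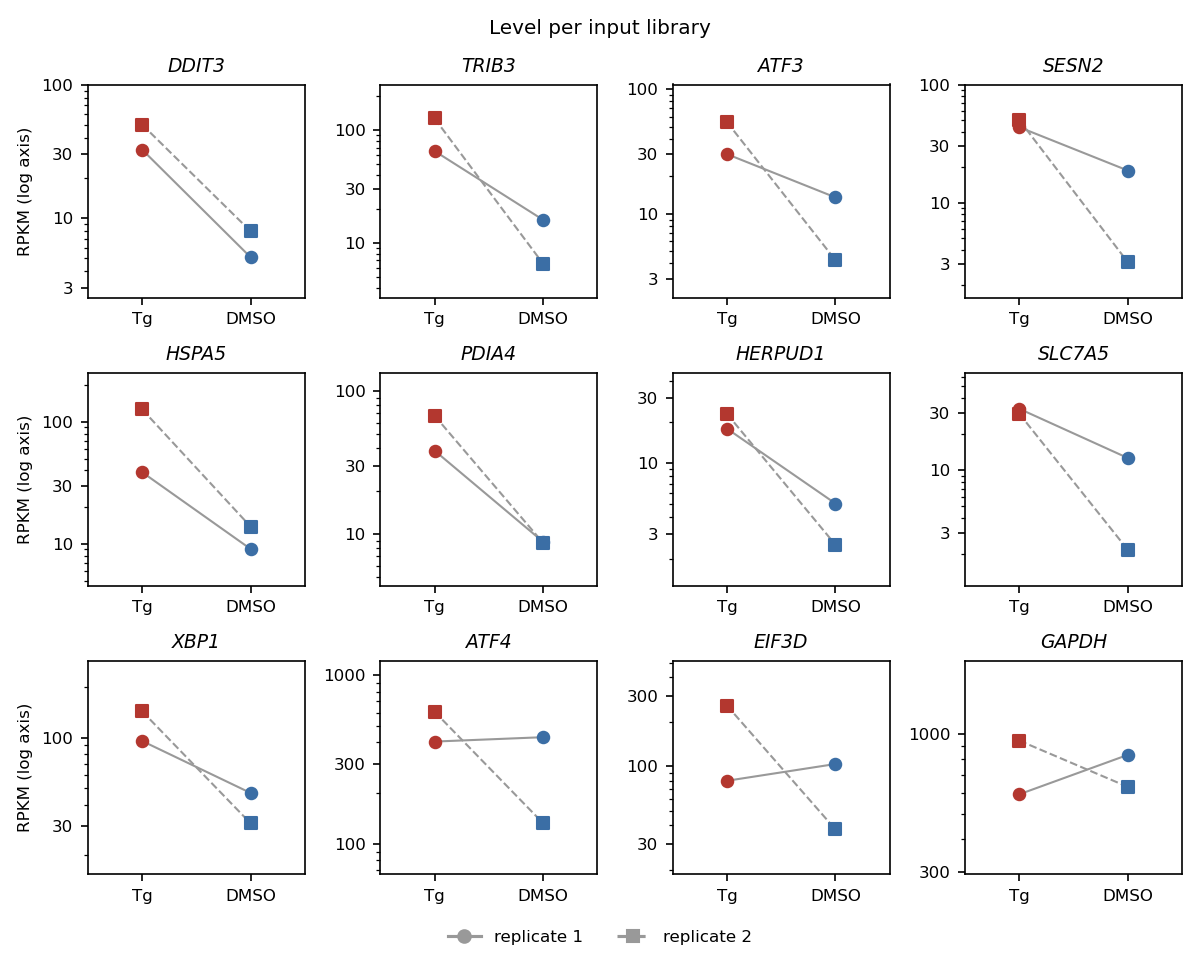
RPKM on a log axis in the Tg and the DMSO input of replicate 1 (circles, solid lines) and replicate 2 (squares, dashed lines) for 12 genes; 1 point is 1 library. DDIT3, TRIB3, ATF3, SESN2, HSPA5, PDIA4, HERPUD1, SLC7A5 and XBP1 were higher in both Tg inputs than in either DMSO input, whereas ATF4, EIF3D and GAPDH differed in sign between the pairs. The share of all genes tested that were higher in both Tg inputs than in either DMSO input is not given.

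Amino acid supply was the next group of the ISR. Of 10 tested amino acid transporters, all 10 lay above both pair medians, 6 by more than 1 in both, and 3 lay above 1 in both without that correction. SLC7A5, the LAT1 carrier of large neutral amino acids, had 32.5 and 29.6 RPKM in the Tg inputs, against 12.6 and 2.16 RPKM in the DMSO inputs. SLC3A2, its heavy chain partner, had 15.9 and 46.4 RPKM in the Tg inputs, against 9.76 and 6.48 RPKM in the DMSO inputs. SLC1A4, a neutral amino acid carrier, had 4.18 and 4.55 RPKM in the Tg inputs, against 0.762 and 0.0691 RPKM in the DMSO inputs, and SLC6A9, a glycine carrier, had 4.44 and 3.88 RPKM in the Tg inputs, against 1.00 and 0 RPKM in the DMSO inputs. SLC6A9 had 0 reads in DMSO input 2, where a count of 0 allows up to 3 reads or 0.0398 RPKM. Neither SLC1A4 nor SLC6A9 would have passed the filter on its DMSO inputs alone, so both entered the counts through their Tg levels.

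Of 13 tested genes of amino acid and one-carbon synthesis, 10 lay above both medians and 2 lay above 1 in both pairs. CTH, which makes cysteine from cystathionine, had 14.4 and 12.4 RPKM in the Tg inputs, against 4.18 and 0.737 RPKM in the DMSO inputs. PSAT1, of serine synthesis, had 116 and 90.9 RPKM in the Tg inputs, against 61.1 and 14.1 RPKM in the DMSO inputs, and lay above the medians by 1.26 and 1.95. ALDH1L2, a mitochondrial folate enzyme, had differences of 1.65 and 1.25. PHGDH, the first enzyme of serine synthesis, had −0.69 and 1.62, which lay below the median in pair 1 by 0.33. ASNS, asparagine synthetase and a widely used ISR marker, was at 0.440 and 0.149 RPKM in the Tg inputs, against 0.0276 and 0.123 RPKM in the DMSO inputs, under the filter, and was not tested.

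Genes of the enzymes that charge tRNA form a cytosolic and a mitochondrial list. Of 20 cytosolic aminoacyl-tRNA synthetases, 17 lay above both medians and 2, WARS1 and IARS1, lay above 1 in both pairs, with list medians of 0.55 in pair 1 and 1.70 in pair 2 above the all-gene median. WARS1, for tryptophan, had 27.5 and 21.6 RPKM in the Tg inputs, against 11.4 and 2.33 RPKM in the DMSO inputs. GARS1, for glycine, had differences of 0.64 and 3.33, and QARS1, for glutamine, had −1.04 and 0.88. Of 16 mitochondrial synthetases, 8 lay above both medians, with list medians of 0.06 in pair 1 and 0.36 in pair 2. In this list 0 lay above 1 in both, near the 0.856% of all genes tested. The difference between the lists was not tested.

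The ER chaperones held the most genes past 1 in both pairs of the 38 lists, 8 of 18, with 16 of 18 above both medians. Above the all-gene median of the pair, their list medians were nearly equal, at 1.23 in pair 1 and 1.21 in pair 2. Without subtraction of the pair medians, their list medians were 0.87 in pair 1 and 1.87 in pair 2. HSPA5 encodes BiP, the Hsp70 of the ER that holds the UPR sensors inactive, and had 38.6 and 126 RPKM in the Tg inputs, against 9.06 and 13.8 RPKM in the DMSO inputs. Its differences were 1.98 and 3.10, with 2.54 ± 0.63 (SE), adjusted p = 0.0909 (limma), above the threshold of 0.05; among genes with a mean of at least 5 RPKM its adjusted p was 0.0104 and it was called. HSP90B1, the Hsp90 of the ER, had 25.6 and 68.5 RPKM in the Tg inputs, against 9.90 and 9.59 RPKM in the DMSO inputs. CALR, the lectin chaperone calreticulin, had 61.4 and 164 RPKM in the Tg inputs, against 26.2 and 34.0 RPKM in the DMSO inputs.

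The other chaperones past 1 in both pairs were HYOU1, MANF, SDF2L1, DNAJB9 and DNAJC10. HYOU1, a large Hsp70 relative that acts as exchange factor for BiP, had 6.52 and 10.1 RPKM in the Tg inputs, against 2.05 and 0.320 RPKM in the DMSO inputs. MANF, a BiP cofactor that is also secreted, had 82.4 and 159.8 RPKM in the Tg inputs, against 32.2 and 49.8 RPKM in the DMSO inputs. SDF2L1, part of a BiP co-chaperone complex, had 249 and 405 RPKM in the Tg inputs, against 113 and 164 RPKM in the DMSO inputs. The differences of MANF were 1.33 and 1.66 and those of SDF2L1 1.13 and 1.30, and no Tg input overlapped a DMSO input in either gene. CANX, the membrane-bound partner of CALR, had differences of 0.85 and 2.86. DNAJB2, a co-chaperone of the list, had −0.79 and 1.11 and lay below the median in pair 1.

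Protein disulfide isomerases and ER oxidases had 3 of 13 members past 1 in both pairs and 12 of 13 above both medians. Their list medians lay above the all-gene median by 1.09 in pair 1 and 1.09 in pair 2. Without that subtraction they were 0.73 in pair 1 and 1.74 in pair 2. PDIA4 had 38.4 and 67.5 RPKM in the Tg inputs, against 8.82 and 8.67 RPKM in the DMSO inputs. PDIA3, which works with CALR and CANX on glycoproteins, had 13.6 and 49.5 RPKM in the Tg inputs, against 5.22 and 7.07 RPKM in the DMSO inputs, and PDIA6 had 16.7 and 55.8 RPKM in the Tg inputs, against 7.35 and 7.90 RPKM in the DMSO inputs. PDIA4 reached 2.41 ± 0.65 (SE), adjusted p = 0.176, and it was called at adjusted p = 0.0387 among genes with a mean of at least 5 RPKM (limma). P4HB, the founding member of the family, had differences of 0.36 and 2.67, and ERP29 had −0.32 and 1.35.

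Among 17 genes of ER-associated degradation, which sends misfolded proteins back to the cytosol, 12 lay above both medians and 2 lay above 1 in both. HERPUD1, which organises the retrotranslocation complex, had 17.9 and 23.0 RPKM in the Tg inputs, against 5.06 and 2.52 RPKM in the DMSO inputs. DERL3, a derlin of the retrotranslocation channel, had 4.75 and 4.97 RPKM in the Tg inputs, against 1.17 and 0.144 RPKM in the DMSO inputs. On its DMSO inputs alone DERL3 would not have passed the filter, so it entered the counts through its Tg levels. VCP, the ATPase that extracts the substrates, had differences of −0.43 and 1.56, below the median in pair 1. EDEM1 and EDEM3, which mark misfolded glycoproteins for degradation, had 0.61 and 1.13 for EDEM1 and 1.13 and 0.70 for EDEM3.

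Translocation, signal peptidase and secretory transport had 5 of 28 members past 1 in both pairs and 21 of 28 above both medians. They were SSR1 and SSR3, subunits of the translocon-associated TRAP complex, SEC23B and SEC24D of the COPII coat and COPG1 of the COPI coat. SSR3 had 57.4 and 76.4 RPKM in the Tg inputs, against 21.3 and 22.4 RPKM in the DMSO inputs, and COPG1 had 20.6 and 14.2 RPKM in the Tg inputs, against 8.62 and 1.59 RPKM in the DMSO inputs. SEC61A1, the channel itself, had differences of 0.73 and 2.98, whereas its small subunits had 0.58 and 0.13 for SEC61B and 0.93 and 0.39 for SEC61G. N-glycosylation had 2 of 18 members past 1 in both, RPN1 of the oligosaccharyltransferase and GFPT1 of hexosamine synthesis, and 16 of 18 above both medians. RPN1 had 35.5 and 97.1 RPKM in the Tg inputs, against 16.5 and 18.9 RPKM in the DMSO inputs. OST4, a very small subunit of the same transferase, had −0.29 and −1.16.

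The UPR sensors and branch factors gave 1 of 6 past 1 in both pairs and 6 of 6 above both medians. XBP1, whose mRNA is spliced by IRE1, had 95.6 and 143 RPKM in the Tg inputs, against 46.8 and 30.8 RPKM in the DMSO inputs. The gene-level RPKM does not separate spliced from unspliced XBP1. ATF6 had differences of 0.73 and 1.46. EIF2AK3, which encodes PERK, was at 0.902 and 0.643 RPKM in the Tg inputs, against 0.226 and 0.0630 RPKM in the DMSO inputs, under the filter. Of 9 ER calcium genes, 0 lay above 1 in both, near the 0.856% of all genes tested. ATP2A2, which encodes the SERCA pump that thapsigargin binds, had 4.59 and 2.42 RPKM in the Tg inputs, against 3.36 and 0.364 RPKM in the DMSO inputs.

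**Figure D4:**
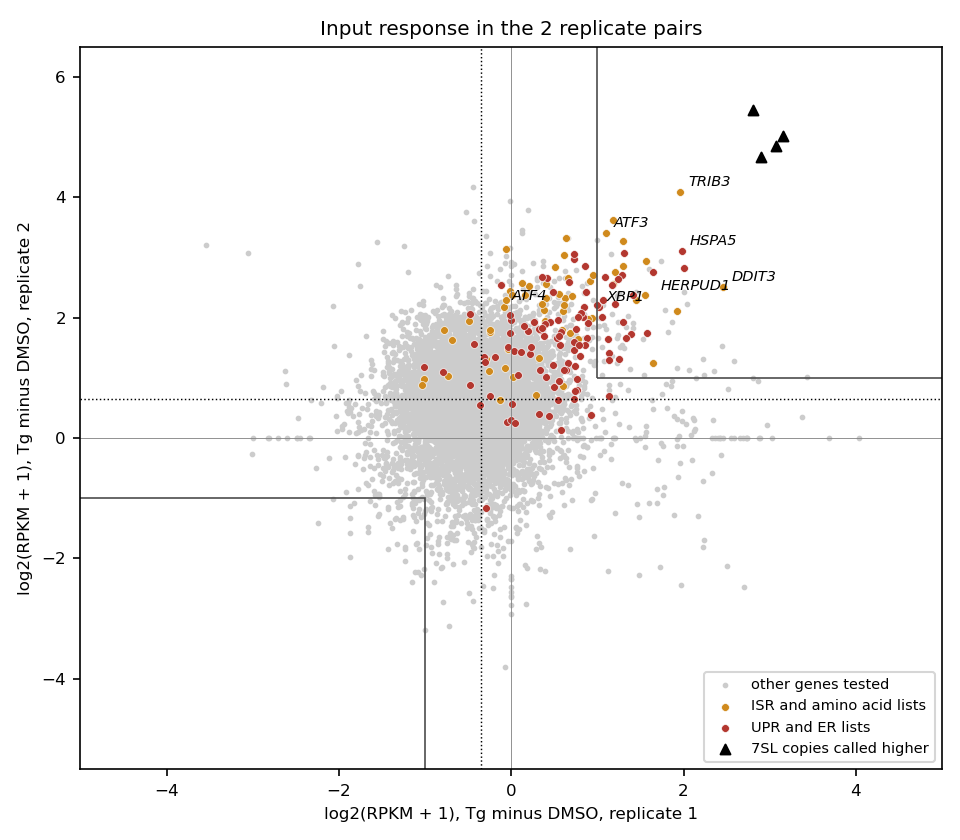
Tg minus DMSO of log2(RPKM + 1) in pair 1 (x axis) and pair 2 (y axis) for the 9813 genes tested, with the ISR and amino acid lists in orange, the UPR and ER lists in red and the 4 called 7SL copies as triangles; dotted lines are the all-gene medians and boxes hold the genes past 1 in the same direction in both pairs. The mitochondrial synthetases (8 of 16 above both medians) and the ER calcium genes (6 of 9 above both, 2 below both) are not coloured. In each coloured list most genes lie to the upper right of the medians. The lower box holds 0 genes of the coloured lists and 0.581% of all genes tested, and a count of 0 is near that share.

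For lists outside the stress response, list medians are given relative to the all-gene median of the pair. They were −0.15 in pair 1 and 0.22 in pair 2 for eIF3 subunits. For the m6A machinery they were −0.04 in pair 1 and 0.09 in pair 2, and for proteasome subunits −0.08 in pair 1 and 0.35 in pair 2. The genes of cholesterol and fatty acid synthesis had −0.10 in pair 1 and −0.08 in pair 2. None of these 4 lists had a gene past 1 in both pairs. Over all genes tested, 0.856% lay above 1 and 0.581% below −1 in both pairs. A count of 0 in lists of this size is near those shares. The nuclear-encoded respiratory chain lay at −0.09 in pair 1 and −0.63 in pair 2 relative to the median, with 17 of 36 genes below both medians and 1 above both. It had 0 genes past 1 in both pairs, again near the shares over all genes. EIF3D, the tagged gene, had 79.9 and 257 RPKM in the Tg inputs, against 104 and 37.6 RPKM in the DMSO inputs, with differences of −0.37 and 2.74. Reads from the tagged and the native gene cannot be told apart here. ALKBH5, an m6A demethylase, had −0.41 and 2.01, METTL3, the methyltransferase, −0.46 and 0.53, JUN −0.29 and 1.76, and EIF2AK4, which encodes the eIF2alpha kinase GCN2, −0.30 and 0.41.

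Ribosomal proteins, mitochondrial transcripts and histones lay differently against the median in the 2 pairs. Relative to it, small-subunit ribosomal proteins had list medians of 0.25 in pair 1 and −0.97 in pair 2, and large-subunit ones 0.14 in pair 1 and −0.93 in pair 2. Without subtraction of the pair medians, small-subunit ones had −0.11 and −0.31 and large-subunit ones −0.21 and −0.27, below 0 in both pairs. Mitochondrially encoded mRNAs had 0.04 in pair 1 and −1.20 in pair 2, and −0.31 and −0.54 without that subtraction. Their summed level was 9839 and 49719 RPKM in the Tg inputs, against 12134 and 79511 RPKM in the DMSO inputs. Replication-dependent histones, whose mRNAs end without a poly(A) tail, had 2.12 in pair 1 and −0.58 in pair 2, and 1.77 and 0.07 without subtraction. Their summed level was 6512 and 785 RPKM in the Tg inputs, against 2062 and 816 RPKM in the DMSO inputs. Tg input 1 was thus the library with the most histone RNA.

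**Figure D5:**
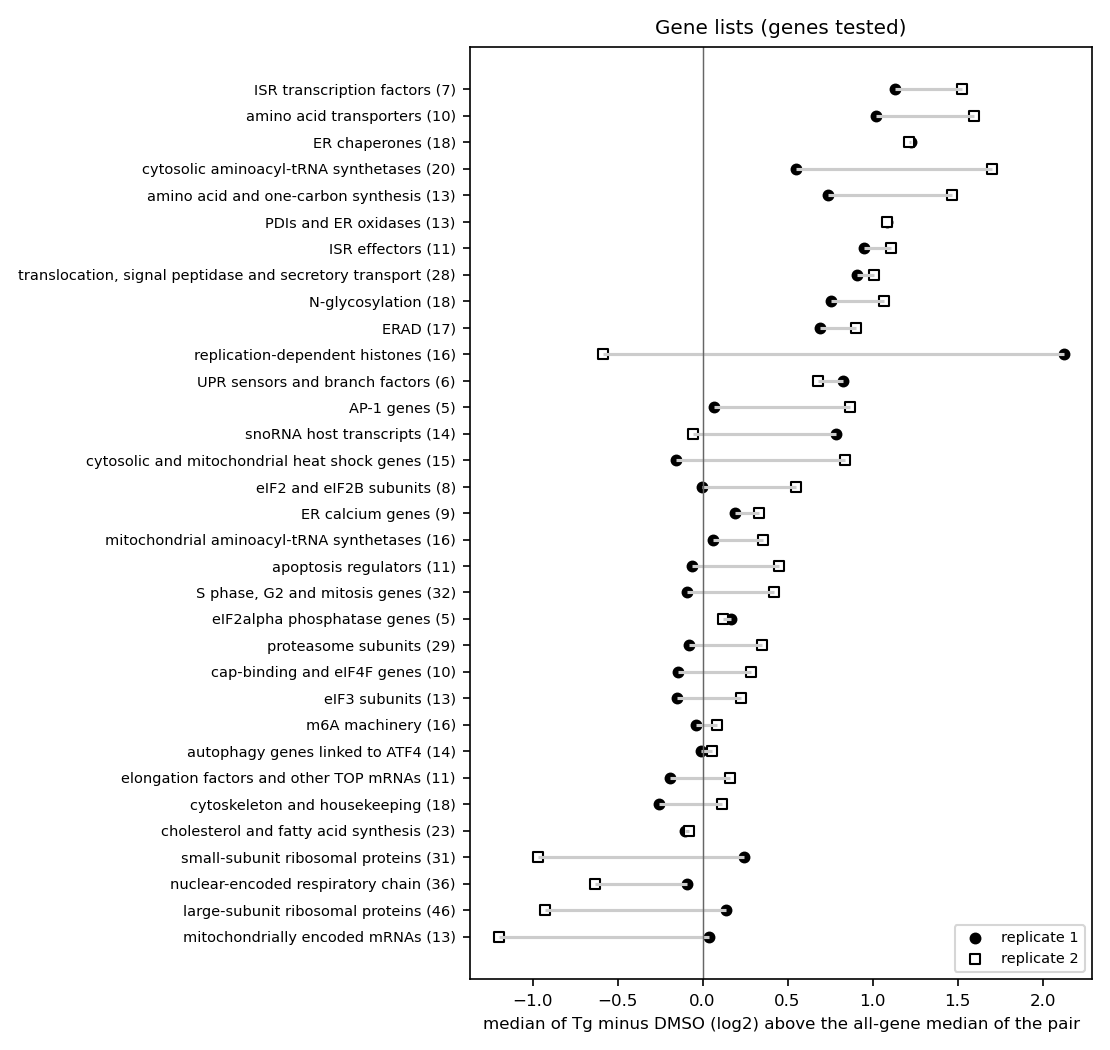
Median of Tg minus DMSO (log2) above the all-gene median of the pair for each gene list with at least 5 genes tested, in pair 1 (filled circles) and pair 2 (open squares), with the number of genes tested in brackets. Of the 13 stress lists, those of ER chaperones and of disulfide isomerases lie at nearly the same distance from the all-gene median in both pairs. Histones, ribosomal proteins and mitochondrial mRNAs lie at different distances from it in the pairs.

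The other 4 genes called were copies of 7SL, the RNA of the signal recognition particle. RN7SL2 had 106974 and 6682 RPKM in the Tg inputs, against 12054 and 204 RPKM in the DMSO inputs, and its differences were 3.15 and 5.03. RN7SL3, RN7SL4P and RN7SL5P are near-identical to it and can share its reads, so the 4 calls are not independent, and RN7SL1 was listed at 0 in all 4 inputs. All copies together took 3.87% and 0.229% of reads in the Tg inputs, against 0.45% and 0.00713% in the DMSO inputs (95% Wilson intervals 3.86 to 3.89%, 0.227 to 0.232%, 0.445 to 0.454% and 0.00671 to 0.00757%, for counting error only). DMSO input 1 was above Tg input 2, so the groups overlapped in this share. In the RNA-Seq libraries of WT cells RN7SL2 had 2912 and 1415 RPKM with Tg against 1894 and 52122 RPKM with DMSO, a range that one DMSO library set. 7SL is not polyadenylated, and the part of RNA selection in these values was not tested.

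Among the 84 genes above 1 in both pairs, 50 lay outside the 13 lists, and 25 of these had a mean of at least 5 RPKM. The genes outside the lists that are named here, higher or lower, were picked after their values were seen. The 50 included 9 copies of 7SL or 7SK and 5 histone genes, both kinds of RNA without a poly(A) tail. In the histone list 0 of 16 tested genes lay past 1 in both pairs, and H4C9, a histone gene outside it, lay below −1 in both, at −1.33 and −1.76. Among mRNAs, G0S2, an inhibitor of the lipase ATGL, had 19.0 and 33.3 RPKM in the Tg inputs, against 3.98 and 5.38 RPKM in the DMSO inputs. PLPP5, a lipid phosphatase, had 8.46 and 10.4 RPKM in the Tg inputs, against 1.59 and 1.99 RPKM in the DMSO inputs. TRAM1 of the translocon, SLC35B1, an ATP carrier of the ER membrane, and XPOT, the tRNA exportin, had differences of 1.25 and 2.41 for TRAM1, 1.33 and 1.84 for SLC35B1 and 1.02 and 1.87 for XPOT. GAS5 and ZFAS1, noncoding hosts of snoRNAs, were at 420.2 and 384 RPKM with Tg against 179 and 121 RPKM with DMSO for GAS5 and at 14.8 and 18.7 RPKM with Tg against 4.93 and 4.55 RPKM with DMSO for ZFAS1. GAS5 and ZFAS1 were 2 of the 14 snoRNA hosts tested.

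The 57 genes below −1 in both pairs held none of the listed genes, and none passed the test. Their median length was 963 bases against 3960 bases over all genes tested and 2836 bases for the 84 higher genes; 42 of the 57 (73.7%) were in the shortest of 5 equal length classes, as were 35 of the 84 higher genes (41.7%). ID2 and ID3, inhibitors of bHLH factors that respond to BMP signals, had 18.0 and 7.05 RPKM with Tg against 39.3 and 36.7 RPKM with DMSO for ID2 and 22.5 and 14.9 RPKM with Tg against 54.3 and 54.4 RPKM with DMSO for ID3. S100A10, the partner of annexin A2, had 32.4 and 42.1 RPKM with Tg against 88.6 and 97.0 RPKM with DMSO. MT2A, a metallothionein, had 7.84 and 8.96 RPKM with Tg against 17.6 and 34.9 RPKM with DMSO, and HOXC9, a homeobox gene, had 5.72 and 4.06 RPKM with Tg against 23.5 and 10.1 RPKM with DMSO. In each of these 5 genes both Tg inputs were below both DMSO inputs.

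Length itself went with the differences unevenly. The shortest class, from 49 to 1720 bases, had a median difference of −0.36 in pair 1 and 0.02 in pair 2. The longest class, from 6779 to 29523 bases, had −0.20 in pair 1 and 0.68 in pair 2. The 185 stress genes had a median length of 4697 bases. Its part in the results was not tested.

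RNA-Seq of HEK293T cells labelled WT eIF3d, at the same dose and time, was set beside the inputs, and shares no library with the inputs. The RNA-Seq libraries were prepared from poly(A)-selected RNA, and another kit was used. Their eIF3d label also differs from the HA-eIF3d-TEV genotype of the inputs. The parts of genotype, kit and experiment in this comparison cannot be told apart. Over the 8427 genes with a mean of at least 1 RPKM in both sets of libraries, 9 genes (0.107%) lay above 1 in both RNA-Seq pairs and 18 (0.214%) below −1. Of the 77 genes among these that lay above 1 in both input pairs, 31 (40.3%) were above 0 in both RNA-Seq pairs, against 38.9% of all 8427 genes. The share of the 77 was thus near the background.

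TRIB3 had 47.7 and 75.3 RPKM with Tg against 43.0 and 69.2 RPKM with DMSO in RNA-Seq of WT cells. DDIT3 had 20.4 and 31.2 RPKM with Tg against 16.7 and 24.3 RPKM with DMSO, and CHAC1 had 9.03 and 27.4 RPKM with Tg against 9.53 and 29.3 RPKM with DMSO. The RNA-Seq groups overlapped in each of these 3 genes. HSPA5 had 97.5 and 69.5 RPKM with Tg against 72.6 and 33.4 RPKM with DMSO, and PDIA4 had 36.4 and 80.5 RPKM with Tg against 24.3 and 26.9 RPKM with DMSO. ER chaperones had list medians of 0.11 and 0.81 above the RNA-Seq medians in RNA-Seq pairs 1 and 2, and ISR effectors had −0.06 and −0.16.

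The test of the difference between both responses, by limma with Benjamini-Hochberg adjustment over 8427 genes, called none of the genes of the 13 stress lists. TRIB3 came nearest, with an input response larger by 2.89 ± 0.78 (SE, log2) and adjusted p = 0.0646. SESN2 differed by 2.41 ± 0.84 with adjusted p = 0.557, and DDIT3 by 2.18 ± 0.84 with adjusted p = 0.927 (limma). In all, 20 genes (0.237%) were called with a larger input response and 4 (0.0475%) with a smaller one. Of the 20, 15 were small noncoding RNAs or their pseudogenes, 8 of these copies of 7SL or 7SK. In 3 of the 20 the input pairs moved opposite ways. RNA5SP304, RNA5SP370 and RN7SL128P were above 0 only in Tg input 1 among the inputs, at 5.65, 4.86 and 4.50 RPKM. RNU1-3 had an input response of −0.243 against −2.19 in RNA-Seq. S100P, a calcium-binding protein, was called too. Without the replicate block 0 genes were called in either direction (limma), with 23 at an unadjusted p under 0.05.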

How the data were processed

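The authors deposited RPKM per gene and library, 1 table per Subunit-Seq replicate, and RPKM for RNA-Seq in a table of its own. Per the labels' protocols, cells were lysed in a buffer with NP-40 and Subunit-Seq libraries were made with a directional NEBNext Ultra II kit; whether inputs were selected for poly(A) is not given in the sources used here. Per the submitters' processing notes, the tools were BWA, STAR, cutadapt and DESeq2 (no versions or roles given) and the build was GRCh38; the counter and annotation are not given in the sources used here. Symbols were found for 58252 genes (99.2%).

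RPKM values are whole multiples of a step, from which reads and gene length were recovered. In the 26179 genes detected in 3 or more libraries, 100% of values came out as whole reads within 0.02, and voom on these reads was an alternative. For 13 of the tested genes no reads were recovered.

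Values were analysed as log2(RPKM + 1), with no rescaling between libraries. limma 3.58.1 in R 4.3.3 (trend, two-sided) was fitted to the 8 Subunit-Seq libraries in 4 groups with the replicate number as a block, since the tables were deposited per replicate. The fit had 3 residual degrees of freedom and an infinite prior, so the pooled spread alone sets the errors. The deviations of the Tg inputs between replicates 2 and 1 correlated with those of the DMSO inputs (r = 0.51 across genes). The difference from RNA-Seq was fitted over 8 libraries with 2 residual degrees of freedom. Both fits were run on simulated data with independent noise and no replicate effect. These libraries differ from that setting, so the run checks the code and not the error rates here. Counts past 1 in both pairs are descriptions with no test. Promoter windows came from RefSeq (GRCh38.p14) and matched 7017 of 9802 tested symbols.

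Named genes were EIF3D, called genes with a mean of at least 5 RPKM, up to 4 called or otherwise the 2 most expressed genes of a list, and 14 stress and m6A genes. Other list members were named after their values were seen, because they lay past 1 in both pairs or for contrast. The members, lists and rules were chosen with earlier results of these data known.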

Additional observations from a re-analysis of the deposited data

Results flagged for a closer look

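Each result here differed between the input response and the RNA-Seq response of WT cells by limma's test of that difference; the counts were 20 genes with a larger and 4 with a smaller input response. 7SL copies differed most, RN7SL2 by 6.38 (log2), RN7SL4P by 6.11, RN7SL5P by 5.66 and RN7SL3 by 5.49, and WT DMSO library 2 held 52122 RPKM of RN7SL2. S100P differed by 3.37, with 3.67 and 6.63 RPKM in the Tg inputs against 0.384 and 3.58 RPKM in the DMSO inputs, and with 6.11 and 21.8 RPKM with Tg against 40.0 and 74.3 RPKM with DMSO in RNA-Seq of WT cells. MT-CO3, a mitochondrial subunit of cytochrome oxidase, differed by −1.44, with 1784 and 13312 RPKM in the Tg inputs against 2258 and 23228 RPKM in the DMSO inputs, and with 2501 and 5958 RPKM with Tg against 1802 and 2468 RPKM with DMSO in RNA-Seq. MT-CO2, another subunit of that enzyme, differed by −1.26. MT-RNR1, the small mitochondrial rRNA, differed by 1.06, but its input differences were 2.23 in pair 1 and −0.72 in pair 2.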

How the results depend on the processing

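Called genes depended on the fit: 5 were higher and 0 lower in the reported one. Without the replicate block, with a pseudocount of 0.1, with no filter, with median-ratio size factors, without mitochondrial genes, with voom on recovered reads, or with the own spread of each gene, 0 were called in either direction (limma), with 163 to 493 genes at an unadjusted p under 0.05. A pseudocount of 5 called 28 higher and 1 lower, and a robust prior 1 higher. The 4 inputs alone called 5, with MT-RNR1 in place of TRIB3 (adjusted p = 0.0707, limma), and a mean of at least 5 RPKM called 7, adding HSPA5 and PDIA4. Leaving out 1 input at a time called 0 to 30 higher and 0 to 3 lower. The counts past 1 in both pairs, 84 higher and 57 lower, were 143 and 130 with a pseudocount of 0.1, 128 and 79 with median-ratio factors, 23 and 4 with one of 5, and 49 and 25 at a mean of at least 5 RPKM. In pair 1 alone, 187 and 902 genes lay past 1, and in pair 2 alone 2984 and 282. The difference from RNA-Seq, 20 higher and 4 lower, gave 0 and 0 without the replicate block and with no filter, 5 and 0 with a pseudocount of 5, 8 and 0 at 5 RPKM, 26 and 8 with one of 0.1, 12 and 5 with a robust prior, and 5 to 934 and 0 to 371 on leaving out a library. The signs of 4 genes turned. EIF2AK4 gave −0.0243 with a pseudocount of 5, −0.115 without Tg input 1 and −0.586 without DMSO input 2. METTL3 gave −0.00327 with a pseudocount of 5, −0.188 with median-ratio factors, −0.113 without Tg input 2 and −0.474 without DMSO input 2. Without DMSO input 2, JUN gave −0.646 and ALKBH5 −0.648, and without DMSO input 1 the values were 0.694 for EIF2AK4, 0.549 for METTL3, 2.12 for JUN and 2.25 for ALKBH5. The causes were not tested. Counts relative to the pair median and in 1 pair alone were chosen after seeing the data.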
